A study of Danio rerio with 4 samples.

Results

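The genes *mpx*, *lyz*, *npsn*, *mmp13a*, *mmp9*, *lect2l* and *cpa5*, which encode neutrophil granule proteins and proteases, were followed through 4 single-cell libraries of zebrafish kidney. The 7 genes were taken by name, and each of them was listed in every library among 28357 genes in all. The libraries held kidney cells of AB zebrafish at 4 days post-injury, after an intraperitoneal injection of gentamicin, an antibiotic toxic to the kidney tubule (20 uL for each fish, at 2.7 ug/uL). All 4 libraries carried this treatment, so no uninjured kidney was analysed here, and every comparison was made between groups of cells from the same libraries. The labels did not state whether the libraries came from different fish, and p-values therefore measure only the spread between libraries, which may be technical.

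The kidney of the zebrafish holds the marrow in which blood cells form, and neutrophils arise there from dividing precursors. In mammals, maturing neutrophils fill one kind of granule after another, with myeloperoxidase made in early precursors and gelatinase made late, after division has ended. *mpx* encodes myeloperoxidase, which produces hypochlorous acid in the phagosome, and *lyz* encodes lysozyme, which cleaves bacterial cell walls. *npsn* encodes nephrosin, a metalloprotease of the astacin family, and *lect2l* encodes a relative of the leukocyte chemotaxin LECT2. *cpa5* encodes a carboxypeptidase of the A family, whose transcript has also served as a mast cell marker in zebrafish. *mmp13a* and *mmp9* encode matrix metalloproteases, a collagenase and a gelatinase.

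The libraries held 31008 cells (9048, 9831, 6308 and 5821) and between 59350367 and 87759842 unique molecular identifiers (UMIs), each of which counts 1 captured transcript. Libraries 1 and 2 were shallower (4643.5 and 4358.0 UMIs in the median cell) than libraries 3 and 4 (9953.5 and 9883.0), and the sums over all genes differed far more across these pairs than within them (chi-square per degree of freedom of at least 523 across, 15.3 and 7.34 within). Values are therefore also given for libraries 1 and 2 and for libraries 3 and 4 alone. Between 1 and 108 cell barcodes were shared by any 2 libraries. Cells were clustered with the 7 genes kept out of the genes used, and clusters were named from other markers. By this rule 9128 cells (29.4%) were neutrophil-like, and they held 93.0 to 95.0% of the UMIs of the 7 genes in each library.

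The neutrophil-like cells were divided into 3 stages by marker lists that did not include the 7 genes. Cycling precursors (1285 cells) were led by genes of DNA replication and mitosis such as *mcm5* and *top2a*. Immature cells (1126 cells) scored below the threshold set for cycling cells, and lower on the mature than on the immature markers, relative to the other sub-clusters. Mature cells (5817 cells) fell into 6 sub-clusters. A shallow sub-cluster (713 cells) and one with erythroid genes (187 cells) were left out. The median cell held 13270.0 UMIs among cycling precursors, 10596.5 among immature cells and 6046.0 among mature cells, so levels are given as CPM, the UMIs of a gene scaled to 1000000 UMIs of the stage in a library.

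The 7 genes together made up 15.0, 15.2, 10.9 and 10.6% of the UMIs of cycling precursors in libraries 1 to 4. They made up 18.7, 19.4, 14.1 and 14.3% in immature cells and 9.61, 9.69, 6.53 and 6.51% in mature cells. In every library the share was highest in immature cells, and *lyz* alone accounted for 7.79 to 12.4% of all UMIs there. A high share of a few genes lowers the CPM of all others, and the fits were repeated with the 7 genes left out of the library sizes.

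**Figure D1:**
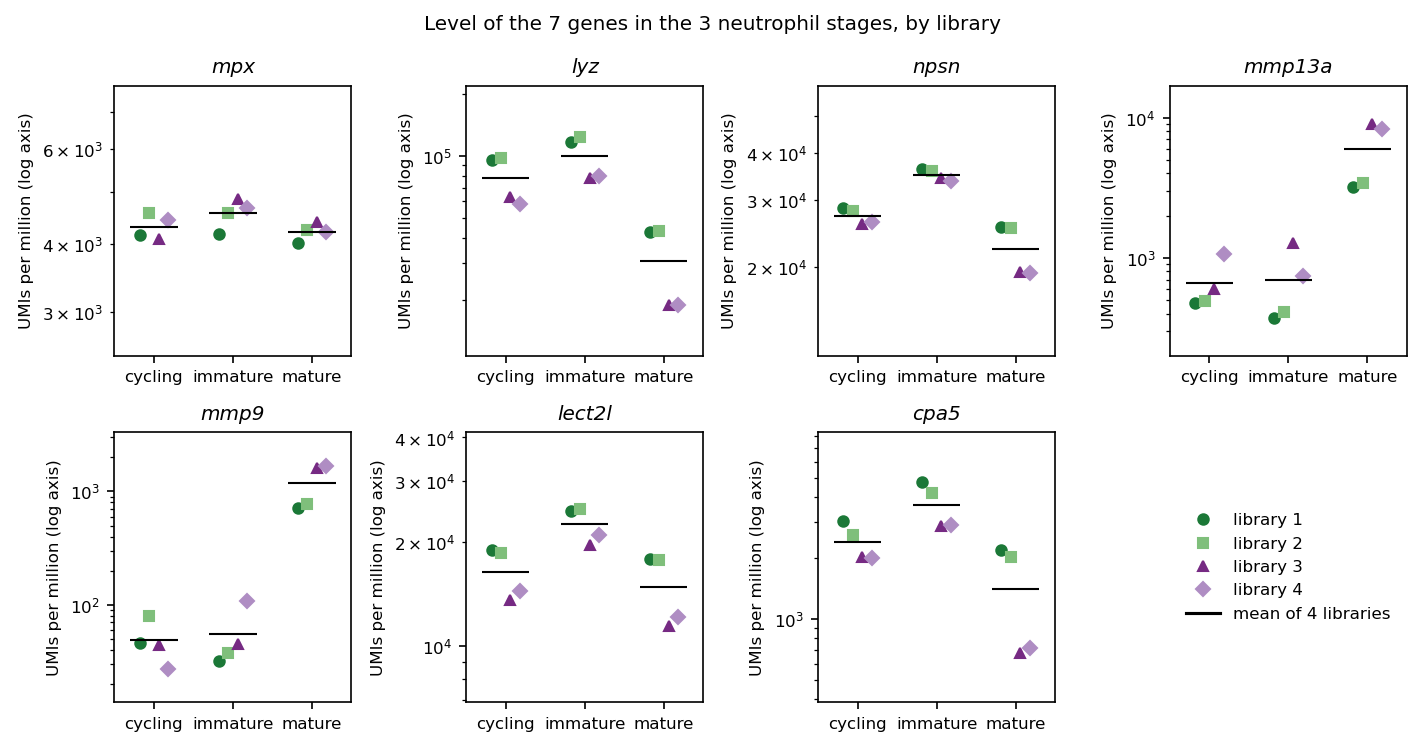
Level of each of the 7 genes (CPM, log axis) in cycling, immature and mature cells, with 1 point per library and a bar at the mean of the 4 libraries. *mmp9* and *mmp13a* stand above their immature level in all 4 libraries in mature cells, *lyz* and *cpa5* stand below it, and *mpx* lies between 4026 and 4845 CPM in the immature and mature cells of every library.

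Mature cells carried more *mmp9* and *mmp13a* than immature cells and less *lyz*, *cpa5* and *npsn*, while *mpx* lay at nearly the same level in both. In the edgeR fit over the 3 stages, 2 of the 7 genes were higher in mature than in immature cells and 3 were lower at a Benjamini-Hochberg adjusted p under 0.05. Among all 12566 genes tested in this comparison, 9.90% were higher and 10.9% were lower by the same rule, and the median log2 fold change was 0.03. The levels of *lyz*, *npsn*, *mmp13a*, *mmp9*, *lect2l* and *cpa5* did not overlap between the 2 stages over the 4 libraries, as was so for 23.7% of all genes tested, while 20.8% were called in either direction. The stages were drawn from the same cells that were then compared, although without the 7 genes.

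*mmp9* was measured at 711, 768, 1618 and 1677 CPM in mature cells of libraries 1 to 4, against 32.1, 37.6, 45.4 and 107 in immature cells. Every mature value was above every immature one, and the fold in a library ran from 15.6 to 35.7. Cells named as non-myeloid types held 16.7, 19.5, 29.8 and 33.1 CPM of *mmp9*, so the immature level was low too. What part such a low level has in the size of the fold was not tested. The fitted log2 fold change was 4.40 ± 0.49 (SE, edgeR quasi-likelihood test, Benjamini-Hochberg adjusted p = 9.9e-05). It was 4.36 in libraries 1 and 2 alone and 4.39 in libraries 3 and 4 alone.

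*mmp13a* was measured at 3197, 3421, 8953 and 8325 CPM in mature cells, against 375, 409, 1267 and 742 in immature cells. The mature level was 7.07 to 11.2 times the immature level within each library, although libraries 3 and 4 held more of this transcript than libraries 1 and 2 in both stages. The fitted log2 fold change was 3.07 ± 0.46 (SE, edgeR, Benjamini-Hochberg adjusted p = 0.00055), with 3.04 in libraries 1 and 2 and 3.05 in libraries 3 and 4.

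*lyz* was measured at 42698, 43298, 18840 and 18788 CPM in mature cells, against 116926, 123878, 77947 and 80039 in immature cells. All mature values lay below all immature ones, at 0.235 to 0.365 of the level in the same library. The log2 fold change was -1.69 ± 0.39 (SE, edgeR, Benjamini-Hochberg adjusted p = 0.0085), and the fall was -1.53 in libraries 1 and 2 and -2.13 in libraries 3 and 4.

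*cpa5* was measured at 2203, 2024, 679 and 716 CPM in mature cells, against 4746, 4176, 2871 and 2910 in immature cells. The mature level was 0.464 and 0.485 of the immature level in the first pair of libraries, and 0.237 and 0.246 of it in libraries 3 and 4. The log2 fold change was -1.38 ± 0.43 (SE, edgeR, Benjamini-Hochberg adjusted p = 0.041). Without any 1 of the 4 libraries it stayed between -1.55 and -1.24, and the edgeR adjusted p rose to between 0.073 and 0.13. With the 7 genes left out of the library sizes the adjusted p was 0.051 (edgeR).

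*npsn* was measured at 25457, 25373, 19373 and 19317 CPM in mature cells, against 36228, 35856, 34250 and 33646 in immature cells. The log2 fold change was -0.65 ± 0.17 (SE, edgeR, Benjamini-Hochberg adjusted p = 0.019), and it passed the threshold no longer when any 1 library was left out (adjusted p between 0.069 and 0.13). The log2 fold change of *npsn* stayed between -0.72 and -0.59 in these fits. Without library 1, 2, 3 or 4 in turn, 1 of the 7 genes was still called lower, which was *lyz*. Over all genes, 781 to 979 were called lower without a library, against 1365 with all 4 libraries.

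*lect2l* was measured at 17779, 17722, 11423 and 12105 CPM in mature cells, against 24500, 24852, 19556 and 20972 in immature cells. The groups did not overlap, and the mature level was 0.577 to 0.726 of the immature one. The log2 fold change of -0.62 ± 0.24 (SE) did not pass (edgeR, Benjamini-Hochberg adjusted p = 0.10). With library as a block, which removes the differences between libraries, the *lect2l* value of -0.65 did pass (edgeR, Benjamini-Hochberg adjusted p = 1.2e-06). In this blocked fit 2787 genes were higher and 2552 were lower in mature cells, 22.2% and 20.3% of those tested. The calls of *cpa5* and *npsn* were kept in it.

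*mpx* was measured at 4026, 4258, 4395 and 4214 CPM in mature cells, against 4177, 4574, 4845 and 4675 in immature cells. The values of the stages overlapped, and the mean was 4223 ± 152 in mature cells and 4568 ± 284 in immature cells (SD, n = 4 libraries each). On the log2 scale the difference was -0.13 ± 0.11 (SE, edgeR, Benjamini-Hochberg adjusted p = 0.51). In libraries 3 and 4 alone the small fall in *mpx* passed the threshold, with a log2 fold change of -0.20 (edgeR, Benjamini-Hochberg adjusted p = 0.0046), as did the falls in *lyz*, *npsn*, *lect2l* and *cpa5*, where 18.0% of all genes were lower.

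**Figure D2:**
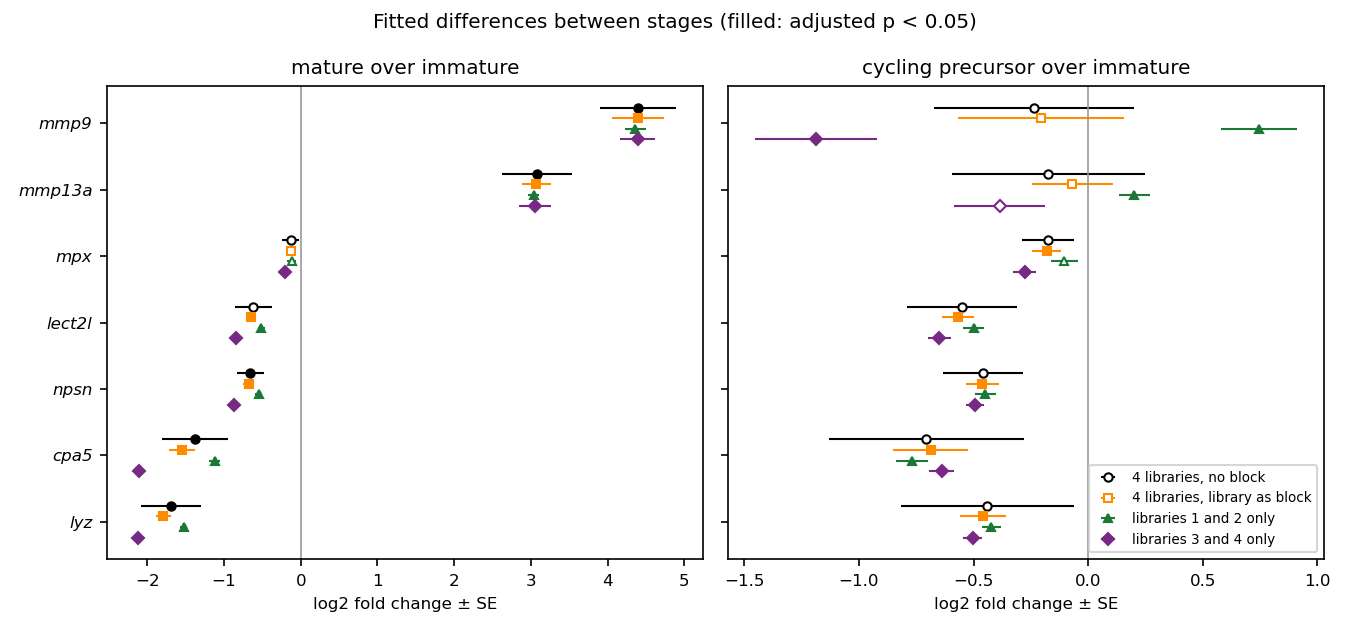
Fitted log2 fold change ± SE of each gene for mature over immature cells (left) and cycling precursors over immature cells (right), from all 4 libraries without and with library as a block and from each pair of libraries alone, with filled symbols at an adjusted p under 0.05. On the left, *mmp9* and *mmp13a* lie at 4.40 and 3.07 in the fit of 4 libraries without the block, and all fits of a gene lie on the same side of 0; on the right, *mmp9* and *mmp13a* change side between the pairs of libraries.

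The share of cells with at least 1 UMI gave the same order once every cell had been thinned to 2000 UMIs, which removes the difference in depth and left out 22 mature, 8 immature and 4676 non-myeloid cells that were shallower. All of these non-myeloid cells came from libraries 1 and 2, where they were 50.5 and 50.7% of the type, so the non-myeloid shares of the pairs of libraries rest on differently chosen cells. *mmp9* was detected in 24.9, 24.7, 37.8 and 38.8% of mature cells, against 1.59, 3.81, 6.69 and 5.80% of immature cells. The exact Clopper-Pearson 95% intervals of library 1 were 22.8 to 27.2% in mature and 0.519 to 3.68% in immature cells, and those of library 4 were 36.0 to 41.6% and 3.13 to 9.72%, which cover counting error only. In the named non-myeloid cells of the same libraries the share was 0.995, 1.19, 2.12 and 2.04%. Before thinning, the median depth of the non-myeloid cells used was 5886 UMIs. *mmp13a* was detected in 77.1, 77.9, 93.1 and 92.1% of mature cells, against 30.6, 26.1, 47.3 and 40.6% of immature cells, with 4.35 to 6.14% of non-myeloid cells. *cpa5* was detected in 77.2, 79.2, 49.0 and 52.0% of mature cells, against 99.7, 99.1, 96.2 and 97.8% of immature cells, with 2.46 to 6.39% of non-myeloid cells. Nearly all cells of every stage held *mpx*, *npsn* and *lect2l* (at least 92.5% at 2000 UMIs in each stage and library). Before thinning, the mean share of *mmp9* over the libraries was 43.1% in mature and 13.4% in immature cells.

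The mature cells were not uniform in the 7 genes. Their 6 sub-clusters, numbered here as they were found, were not tested against each other because the clusters were cut from the same counts. Sub-cluster 8 (83, 80, 136 and 127 cells) was led by *aif1l* and *ccr9a* and stood apart in most of the 7 genes. It carried 4301, 4189, 3546 and 3653 CPM of *mmp9* and 11175, 10088, 14023 and 12932 of *mmp13a*. Its level of *lyz* was only 1449, 1450, 1508 and 2475 CPM, in the range of the non-myeloid cells (2588, 2163, 980 and 1132), and *cpa5* was at 77.2 to 169. *npsn* was at 4176 to 5439 and *lect2l* at 4025 to 5852, below their levels in all mature cells, while *mpx* was at 3210 to 3970. The 7 genes together made up 2.90 to 3.23% of the UMIs of this sub-cluster.

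*mmp9* was detected in 88.8, 79.5, 83.8 and 74.8% of the cells of sub-cluster 8 at 2000 UMIs, above the share in all mature cells of each library. *cpa5* was detected in 17.5, 20.5, 8.09 and 13.4% of its cells. The 15 neutrophil markers, by which the neutrophil-like cells had been named, summed to 13391 to 15508 CPM there and to 12273 to 14967 in all mature cells. The 11 macrophage markers summed to 727 to 1234 CPM in sub-cluster 8 and to 508 to 568 in all mature cells, against 30998 to 43582 in macrophage-like cells. The macrophage scavenger receptor gene *marco* was at 8.7 to 20.0 CPM in sub-cluster 8, against 3727 to 5758 in macrophage-like cells, and the part of these markers in the result was not tested.

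At the other end, sub-cluster 7 (571 cells, led by *lgals2a*) carried 109, 76.9, 123 and 241 CPM of *mmp9*. Its *mmp13a* was at 2357, 2062, 10750 and 10043 CPM, so that in libraries 3 and 4 it held as much *mmp13a* as sub-clusters with far more *mmp9*. Sub-cluster 4 (1005 cells) carried 1897, 2192, 1413 and 2019 CPM of *mmp9* together with 52977, 51740, 16339 and 17211 of *lyz*, and so did not show the loss of *lyz* seen in sub-cluster 8.

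**Figure D3:**
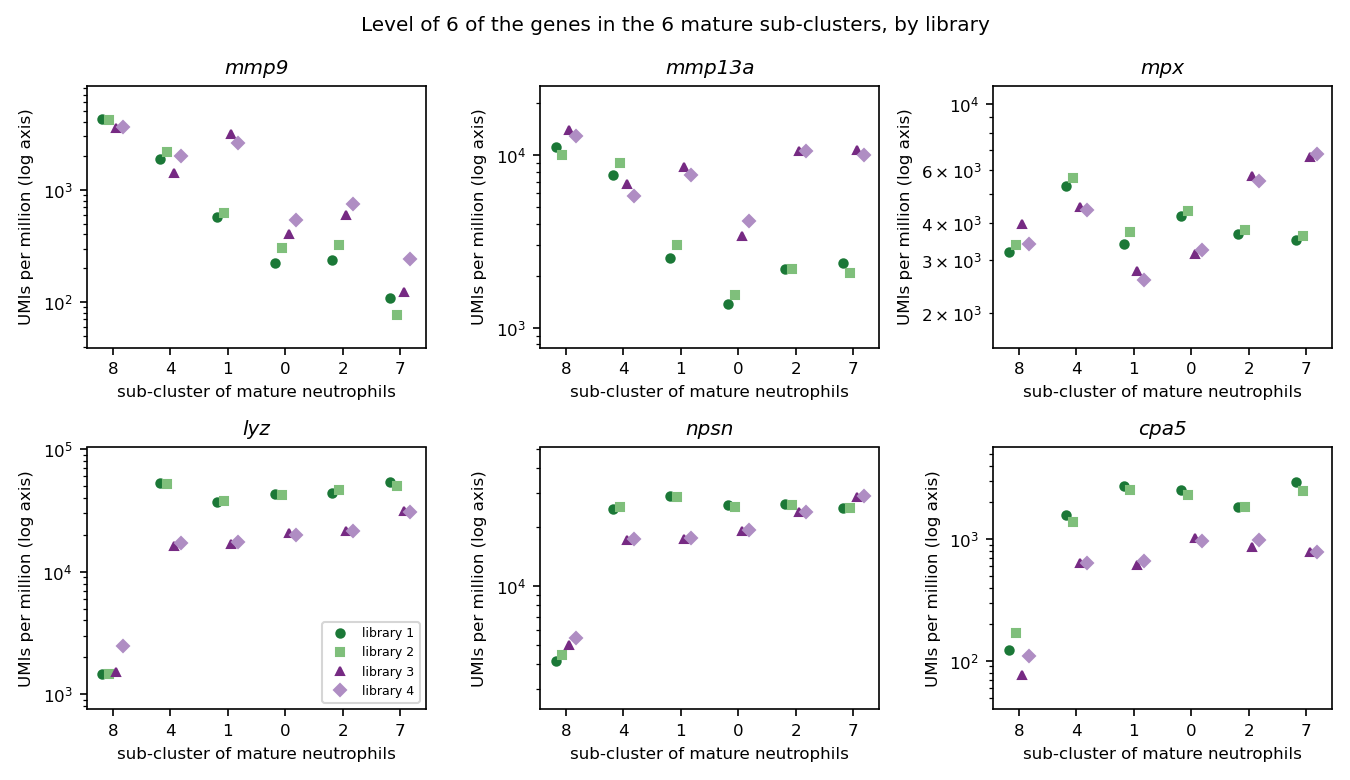
Level of 6 of the genes (CPM, log axis) in the 6 sub-clusters of mature cells, ordered from left to right as 8, 4, 1, 0, 2 and 7, with 1 point per library. Sub-cluster 8 is at 3546 to 4301 for *mmp9* and at 1449 to 2475 for *lyz*, the other sub-clusters hold at least 16339 for *lyz*, and *mpx* stays between 2581 and 6816 throughout.

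Pairs of the genes were then followed in single cells. For each pair, the share of cells with a UMI of both was divided by the product of the 2 shares, within each stage and library at 2000 UMIs per cell, so that 1 marks independence. In mature cells *mmp13a* and *mmp9* were found together in 24.0, 23.2, 37.3 and 37.8% of cells, which was 1.25, 1.21, 1.06 and 1.06 times the expected share. The ratio cannot exceed 1.30, 1.28, 1.07 and 1.09 there, because *mmp13a* was in most mature cells, so it is not compared between stages. The ratio was 1.42 to 2.09 in cycling precursors and 1.47 to 1.96 in immature cells, where 1.0 to 5.4% of cells held both and the highest possible ratio was 2.12 to 3.83. These ratios rest on few cells, since *mmp9* was in only 1.59% of 314 immature cells in library 1. *mmp9* and *cpa5* were found together less often than expected in mature cells, in 11.5, 13.6, 10.9 and 12.8% of cells with ratios of 0.598, 0.695, 0.587 and 0.633. In all 4 libraries this was the lowest ratio of the 21 pairs. *mmp9* with *lyz* averaged 0.93 and *mmp13a* with *cpa5* averaged 0.94. Because *lyz* and *mmp13a* were in most mature cells, these ratios could not fall far below 1. The order of the pairs is therefore not read as a difference between them. For the pairs with *mpx*, *npsn* or *lect2l* the ratio is held near 1, since nearly every cell holds these genes at this depth. *lyz*, in 89.7 to 99.2% of mature cells of a library, likewise limits its pairs with *mmp13a* and *cpa5*.

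**Figure D4:**
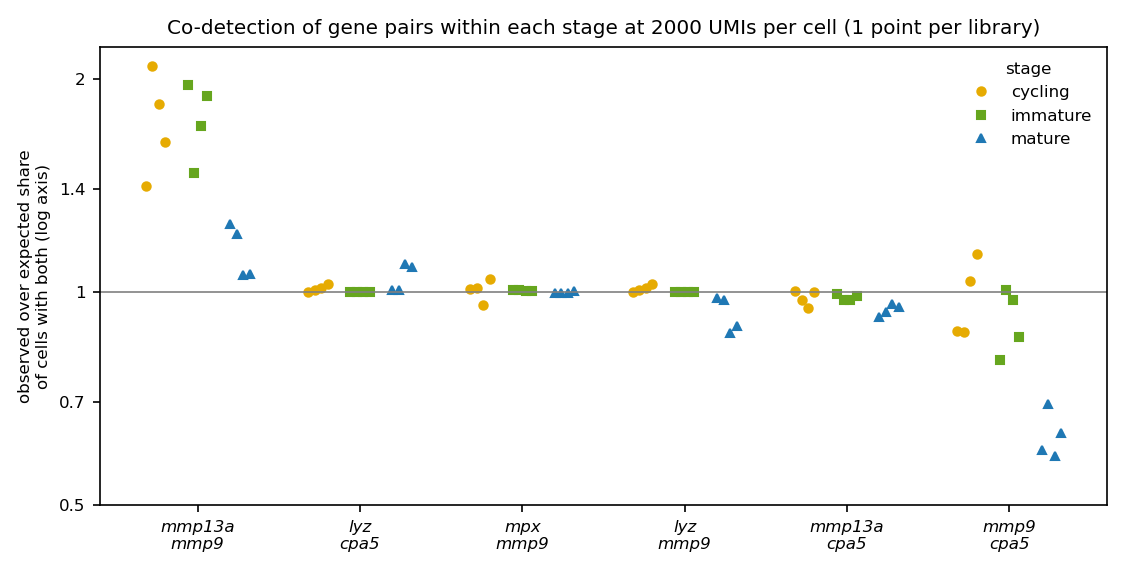
Observed over expected share of cells with both genes of a pair (log axis) for 6 of the 21 pairs, with 1 point per library in cycling, immature and mature cells, each cell thinned to 2000 UMIs. *mmp13a* with *mmp9* lies above 1 in every stage and library (1.06 to 2.09), and *mmp9* with *cpa5* lies at 0.587 to 0.695 in mature cells. Points of *mmp9* in cycling and immature cells rest on few cells, since at most 7.55% of them in a library held it.

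Mature cells with an *mmp9* UMI at 2000 UMIs (392, 436, 476 and 465 of 1572, 1765, 1258 and 1200 cells) were set beside those without one. *lyz* was at 12906, 17245, 6537 and 6977 CPM in the cells with *mmp9*, against 47176, 46127, 23697 and 23259 in those without. The ratio was 0.274 to 0.374 for *lyz* and 0.280 to 0.370 for *cpa5*, and 0.520 to 0.614 for *npsn* and 0.542 to 0.617 for *lect2l*. For *mpx* it was 0.913 to 1.01, so the cells with *mmp9* differed little in *mpx* from those without. *mmp13a* was higher in the cells with *mmp9*, by 5.08, 4.65, 2.63 and 2.48 times. These cells were chosen by a measured gene, and the ratios are a description over the cells of each library.

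Cycling precursors differed less from immature cells. *npsn* was at 28567, 28090, 25930 and 26333 CPM in cycling precursors, against the 33646 to 36228 of immature cells, and *lect2l* was at 18922, 18495, 13594 and 14429, against 19556 to 24852. For these 2 genes the stages did not overlap, as was so for 18.1% of all genes tested. None of the 7 genes passed the threshold in the edgeR fit without the block (8.85% of all genes were higher and 2.94% lower, 11.8% in either direction), 2 genes (*npsn* and *lect2l*) had an unadjusted p under 0.05, and DESeq2 called 1 (*npsn*, lower). With library as a block, edgeR called 5 lower in cycling precursors, at log2 fold changes of -0.69 for *cpa5*, -0.57 for *lect2l*, -0.46 for *lyz*, -0.46 for *npsn* and -0.18 for *mpx*, where 13.8% of all genes were lower. Genes higher in cycling precursors numbered 1112 and genes lower 369 under TMM scaling, and 1352 and 205 without scaling beyond library size, which moved the median log2 fold change of all genes to 0.08 from -0.02.

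*lyz* was at 95009, 97708, 62754 and 58029 CPM in cycling precursors, which was 0.725 to 0.813 of the immature level of the same library. *cpa5* was at 3034, 2586, 2034 and 1991, or 0.619 to 0.708 of it. *mpx* was at 4166, 4564, 4090 and 4435, between 0.844 and 0.998 of it. All 4 libraries thus had the lower value in cycling precursors for each of these 3 genes.

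The metalloproteases were low in both stages and had no common direction. *mmp9* was at 46.1, 79.0, 44.6 and 27.2 CPM in cycling precursors, against 32.1, 37.6, 45.4 and 107 in immature cells. It was higher in cycling precursors in libraries 1 and 2 (log2 fold change 0.75, edgeR, Benjamini-Hochberg adjusted p = 0.00086). In libraries 3 and 4 together it was lower (-1.19, edgeR, adjusted p = 0.0033). The cycling level was 0.984 of the immature level in library 3 and 0.254 in library 4, so this fall lay mainly in library 4. Non-myeloid cells held 16.7, 19.5, 29.8 and 33.1 CPM of *mmp9*, which was above the cycling level in library 4. In libraries 1 and 2 alone, 2 of the 7 genes were called higher and 4 lower, where 14.0% of all genes were higher and 10.8% lower, and in libraries 3 and 4 alone 6 were called lower, where 10.9% of all genes were. *mmp13a* was at 473, 494, 602 and 1066, against 375, 409, 1267 and 742, with a log2 fold change of -0.17 over the 4 libraries that turned positive in 4 of the 17 alternatives tried. *mmp9* was detected in 5.39, 7.55, 5.30 and 3.77% of cycling precursors at 2000 UMIs, against 1.59, 3.81, 6.69 and 5.80% of immature cells.

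Other genes of the same pathways were counted from fixed lists. Of 22 other proteases and inhibitors tested, 6 rose and 2 fell in mature against immature cells, with a median log2 fold change of 0.20. The metalloprotease inhibitor gene *timp2b* was higher (1150, 1129, 1401 and 1392 CPM in mature cells, against 382, 357, 468 and 356; log2 fold change 1.68), as were *cst14b.1* (1.59), a cystatin, and *adam8a* (1.20), a membrane protease. *timp2a* (-1.57) and *ctsz* (-0.65), a cathepsin, fell, with *timp2a* at very low levels (means of 1.19 CPM in mature and 3.52 in immature cells). Of 11 other granule and antimicrobial genes tested, 5 rose and 1 fell (median 0.62). *anxa1a* (1.66), an annexin, *arg2* (1.50), an arginase, and *lygl1* (1.49), a lysozyme of the goose type, were higher, and *srgn* (-0.83), the proteoglycan serglycin that binds granule proteins, fell. For all of these the edgeR adjusted p was under 0.05, where 9.90% of all genes rose and 10.9% fell.

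Of the NADPH oxidase genes, *cybb* (log2 fold change 0.85) and *ncf1* (0.37) rose in mature cells. Of the 18 genes of protein folding and translocation into the endoplasmic reticulum, the site where granule proteins are made, 16 fell and none rose, with a median log2 fold change of -1.66. *ssr4*, a subunit of the translocon, was at 68.2, 64.1, 54.9 and 58.4 CPM in mature cells, against 266, 255, 297 and 292 in immature cells (log2 fold change -2.19), and the chaperone genes *calr* (-2.73) and *calr3b* (-2.45) fell too. Of 7 myeloid transcription factors tested, *cebpb* (1.74), *spi1a* (0.76) and *spi1b* (0.57) rose and *myb* (-1.20) fell. Of 20 cell division genes, 7 fell, among them *mcm3* (-3.67), *mcm5* (-3.33) and *mcm2* (-3.25). Of the genes on these lists, *calr*, *hsp90b1*, *myb*, *cebpa*, *cebp1*, *gfi1aa*, *ncf1* and all cell division genes except *mad2l1* were among the markers that named the stages. Their changes, and the counts of these lists, are not independent of the naming.

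In cycling precursors against immature cells, all 20 cell division genes rose, with a median log2 fold change of 5.60, among them *top2a* (7.02), *rrm2* (6.98) and *cdk1* (6.58). All of these genes except *mad2l1* were among the markers that named the stage. Of the proteases and inhibitors, *ctss2.1* (-0.58), a cathepsin, and *adam10a* (-0.31), a membrane sheddase, fell and none rose. No gene of the granule, endoplasmic reticulum and transcription factor lists passed the edgeR threshold in this comparison.

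Outside the neutrophil-like cells the 7 genes were low in the pooled cell types. In the 14367 named non-myeloid cells they stood at 2.33 to 4.47% of the neutrophil-like level of the same library, and the neutrophil-like level was 22.4 to 43.0 times higher for every gene and library. Without the cells that scored highest as possible doublets, the mean over the libraries fell to between 1.28 and 1.95% for the 7 genes, against 2.68 to 3.99% with them. Single clusters departed from the pooled level. Of 94 sums of a cluster and a library, 5 to 13 per gene lay above 10% of the neutrophil-like level, and the median was between 2.11 and 2.62%. An erythroid cluster with 25 and 26 cells in libraries 3 and 4 held *mmp13a* at 37.9 and 24.8% of it and *lyz* at 15.7 and 28.8%. The median non-myeloid cell held 2, 1, 1 and 1 UMIs of *lyz* in libraries 1 to 4 and none of the other 6 genes. The 1% of non-myeloid cells with the most UMIs of a gene held 61.2 to 91.5% of its UMIs in these cells. *lyz* was detected in 72.7, 63.4, 24.6 and 24.7% of non-myeloid cells at 2000 UMIs, and *mpx* in 7.55, 7.54, 4.58 and 4.70%. Shares of other cell types at or below these are read as background, and what part free RNA has in them was not tested.

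Macrophage-like cells (1721 cells) were set against the non-myeloid cells to ask whether any of the 7 genes stood above the level found there. The edgeR fit without the block called 0 of the 7 genes in either direction (44.8% of all genes were called), 0 had an unadjusted p under 0.05, and DESeq2 called 0. *lect2l* was at 1012, 1035, 397 and 603 CPM in macrophage-like cells, against 721, 596, 348 and 421 in non-myeloid cells, and so was higher in each library. Its log2 fold change was 0.63 ± 0.40 (SE, edgeR, Benjamini-Hochberg adjusted p = 0.24), and 0.57 with library as a block (edgeR, Benjamini-Hochberg adjusted p = 0.020, where 29.6% of all genes were higher). At a finer clustering the direction turned (-0.46). *lect2l* was detected in 45.6, 39.1, 18.4 and 23.0% of macrophage-like cells at 2000 UMIs, against 32.5, 26.5, 13.2 and 13.3% of non-myeloid cells. Without the highest doublet scores, mean *lect2l* over the libraries was 3.64% of its neutrophil-like level in macrophage-like cells, against 1.61% in non-myeloid cells.

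*cpa5* was at 61.9, 94.3, 15.2 and 24.9 CPM in macrophage-like cells, against 97.8, 86.4, 37.9 and 57.5 in non-myeloid cells. It was called lower only with the block (log2 fold change -0.64, edgeR, Benjamini-Hochberg adjusted p = 0.035, where 35.1% of all genes were lower) and in libraries 3 and 4 alone (-1.30), where *lyz* (-0.92) and *mpx* (-0.48) were lower too, with 35.7% of all genes. In libraries 1 and 2 alone, *lect2l* (0.77) and *mmp9* (0.70) were called higher, with 30.5% of all genes. *mmp9* in macrophage-like cells (20.4, 33.7, 25.7 and 67.2 CPM) rested on few cells, since 4 or 5 cells held 84.2 to 96.4% of its UMIs in a library.

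HSPC-like cells (1038 cells), which carry markers of haematopoietic stem and progenitor cells, had a lower CPM of 3 genes than non-myeloid cells. The median HSPC-like cell held 13864 UMIs, against 4022 in non-myeloid cells. What part depth has in the lower CPM was not tested. *cpa5* (log2 fold change -1.79, adjusted p = 0.019), *lect2l* (-1.53, 0.0099) and *npsn* (-1.50, 0.0056) were lower by the edgeR test with Benjamini-Hochberg adjustment, where 26.6% of all genes were lower. *npsn* was at 351, 259, 306 and 174 CPM in HSPC-like cells, against 944, 835, 563 and 646 in non-myeloid cells. *mpx* was at 89.0, 117, 111 and 112 in HSPC-like cells, against 124, 128, 105 and 100, with a log2 fold change of -0.16 ± 0.24 (SE, adjusted p = 0.63). *mpx* thus stood at 2.19 to 2.66% of its neutrophil-like level in HSPC-like cells, while *lyz*, *npsn*, *lect2l* and *cpa5* stood at 0.69 to 1.77%. *mmp9* and *mmp13a* were close to *mpx*, at 2.42 and 2.13% as means over the libraries. Without the highest doublet scores the mean for *mpx* was 1.30%, against 0.36 to 0.63% for *lyz*, *npsn*, *lect2l* and *cpa5*. *mmp9* was then at 1.04% and *mmp13a* at 0.37%. The median HSPC-like cell held no *mpx*. With library as a block, *lyz* (-1.32), *mmp9* (-0.90) and *mmp13a* (-0.67) were called lower as well, 6 of the 7 genes in all, where 36.7% of all genes were lower. In libraries 1 and 2 alone 5 were called lower, where 35.6% of all genes were lower. Without library 2, the count was 1 of the 7 genes, *npsn*.

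**Figure D5:**
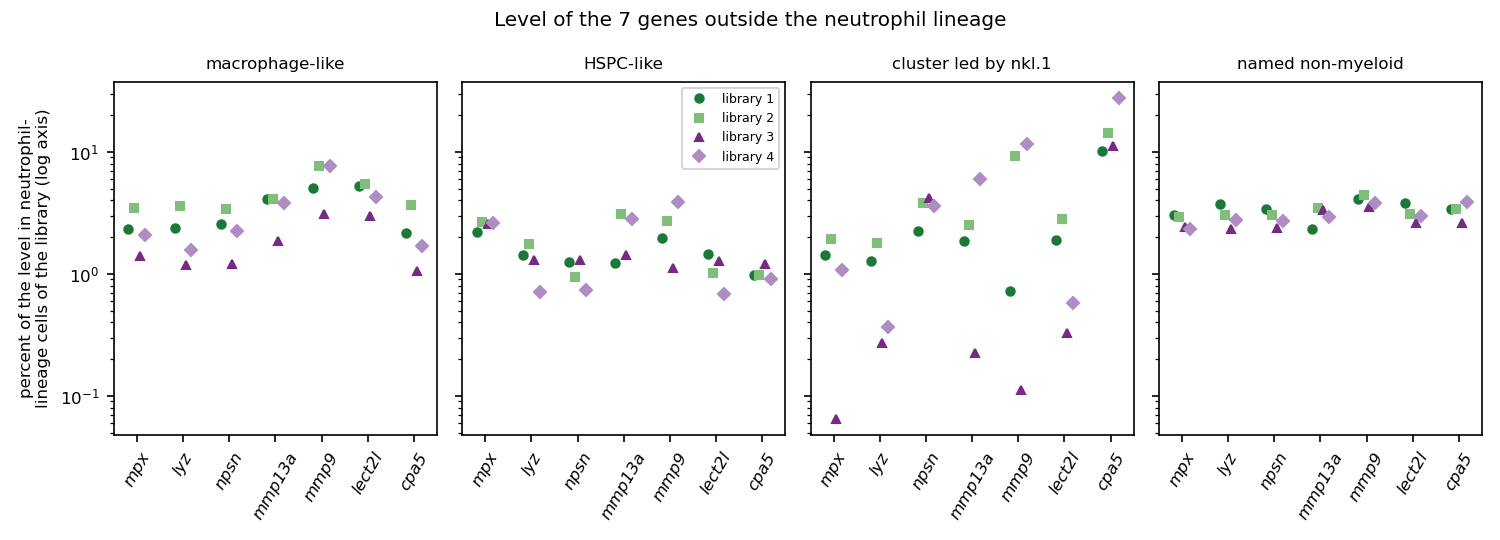
Level of each gene outside the neutrophil-like cells as a percent of its level in the neutrophil-like cells of the same library (log axis), in macrophage-like cells, HSPC-like cells, the *nkl.1* cluster and the named non-myeloid cells, with 1 point per library. The non-myeloid values lie between 2.33 and 4.47% for all 7 genes, and *cpa5* in the *nkl.1* cluster lies between 10.1 and 27.9%.

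A lymphoid cluster was the only one outside the neutrophil-like cells where *cpa5* lay above 10% of the neutrophil-like level in all 4 libraries. The cluster (111, 157, 86 and 80 cells) was named T or NK cell-like. Its first gene was si:dkey-78l4.1, and *nkl.1*, which encodes an NK-lysin, was also among its 10 leading genes. It is called the *nkl.1* cluster here, and it was singled out after its values had been seen. *cpa5* was at 289, 367, 162 and 410 CPM in the cluster, or 10.1 to 27.9% of the neutrophil-like level, against 97.8, 86.4, 37.9 and 57.5 in all non-myeloid cells. *lyz* in the same cells was at 875, 1286, 113 and 150 CPM, below the non-myeloid level in each library. *cpa5* was detected in 19.4, 22.9, 9.30 and 8.75% of its cells at 2000 UMIs, against 5.92, 6.39, 2.46 and 2.82% of non-myeloid cells. The exact 95% interval was 12.3 to 28.4% in library 1 and 3.59 to 17.2% in library 4, and single cells held up to 20, 40, 78 and 128 UMIs of it. *npsn* was detected in 38.8, 37.1, 32.6 and 32.5% of its cells, against 34.9, 30.2, 16.6 and 15.9% of non-myeloid cells. Its CPM was 633, 1049, 988 and 842 in the cluster, against 944, 835, 563 and 646, and so was lower in library 1. The non-myeloid cells include this cluster. The median cell of the cluster held no UMI of *cpa5*, and without the 6% of cells of each library that scored highest as possible doublets *cpa5* stood at 9.26% of the neutrophil-like level, as a mean over the libraries.

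Among the genes outside the 7, those whose levels ran most alike to each of the 7 were sought over 60 sums of cell class and library. Pearson's r of log2(CPM + 10) was used. These sums share libraries, and most of their variation lies between neutrophil-like cells and all others, so the values are a description. *mpx* was most like *ch25hl2* (0.976), *sms* and *hyal3*, and *lyz*, *npsn*, *lect2l* and *cpa5* had *ch25hl2* and *sms* among their first 3 as well. *hyal3* was named again for *npsn* and *cpa5*, *alox5ap* for *lect2l* and si:ch1073-429i10.1 for *lyz*. *mmp13a* was most like *scpp8* (0.887), sc:d156 and si:ch73-170d6.3, and *mmp9* was most like si:dkey-42l23.4 (0.867), si:ch211-11c3.9 and *xkr9*. *sms*, *alox5ap* and *scpp8* were among the markers that named the neutrophil-like cells, so their values are not independent of the naming. Among the 7 genes, the highest value was that of *npsn* with *lect2l* (0.990) and the lowest that of *lyz* with *mmp9* (0.493), while *mmp9* with *mmp13a* reached 0.810.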

How the data were processed

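BD Rhapsody was used to capture kidney cells for 3′ whole transcriptome libraries. The authors deposited 1 matrix of raw UMI counts (genes by cells) for each library, and the submitters' processing notes name UMI-tools, Seurat 4.2 and the zebrafish build GRCz11. The deposited cells all had at least 201 genes, so shallower cells are not in these files. UMIs were counted from the 3′ end and were not divided by length.

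Genes were normalised within each cell and scaled within each library, and cells were clustered (Seurat 5.3.0, R 4.3.3; 2000 variable genes without the 7 genes, 30 principal components, resolution 0.6). Clusters were named from marker lists, and neutrophil-like cells were clustered again after RPCA integration (20 dimensions, resolution 0.4) and staged by cycling, immature and mature lists. Names and stages were rebuilt here and may differ from those of the study. Scrublet (scanpy 1.11.5) called 0.122, 1.43, 0.793 and 0.825% of cells as doublets, so its calls were not used, and leaving out the 6% with the highest scores was an alternative.

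Cells are not replicates, so counts were summed per library and cell group and tested over the 4 libraries with edgeR 4.0.16 (filterByExpr, TMM, glmQLFit and glmQLFTest) with Benjamini-Hochberg adjustment over all genes tested; a call is an adjusted p under 0.05. The cell groups of a library share its preparation, and their deviations correlated at 0.71 to 0.83 in every library and comparison, so library was fitted as a block as well. Alternatives were DESeq2 1.42.0, other scalings and filters, each library left out, each pair of libraries alone, other clusterings and other depths of thinning. The test was also run on simulated counts, whose outcome is not given here and is not used as support. Shares of cells carry exact Clopper-Pearson 95% intervals.

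The 7 genes and the gene lists were chosen with earlier results of these data known. Named from the lists were up to 3 genes that rose and 3 that fell with the largest change past the threshold. For each of the 7 genes, the 3 genes most like it among those outside the 7 were named too. Mitochondrial protein genes were listed only in libraries 3 and 4, so only there are they part of the UMI totals behind CPM and thinning. What part this has in differences between the pairs of libraries was not tested. Results of 1 listed gene are not reported here. Coordinates and sequences were not used here.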

Additional observations from a re-analysis of the deposited data

Results flagged for a closer look

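In 4 of 56 sets of 4 libraries that were checked, library 4 lay far from the other 3 (Dixon's test at the 95% level, which chance alone would pass in about 1 of 20 sets). *mmp9* in HSPC-like cells was at 33.6 CPM in library 4, against 7.91 to 11.9 in the others, and a single cell there held 140 UMIs of it. *mmp13a* in macrophage-like cells was at 179 CPM in library 4, against 79.3 to 92.6. *lyz* in mature sub-cluster 8 was at 2475 CPM in library 4, against 1449 to 1508. *mmp13a* in the *nkl.1* cluster was at 278 CPM in library 4, against 11.2 to 52.3, and a single cell held 152 UMIs of it.

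The ratio of *mmp9* in cycling precursors over immature cells was 1.44 in library 1 and 2.1 in library 2, but 0.984 in library 3 and 0.254 in library 4. The direction thus differed between the pairs of libraries, and the difference was not tested.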

How the results depend on the processing

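*mmp9* and *mmp13a* stayed higher and *lyz* stayed lower in mature than in immature cells past the threshold in all 17 alternatives, while *cpa5* kept its call in 7 and *npsn* in 12 of them, each with the same sign throughout. The calls of HSPC-like cells held in 15 of 15 alternatives for *npsn*, 14 for *lect2l* and 10 for *cpa5*. Clustering without integration of the libraries left no immature cells, so both stage comparisons could not be made there. With all genes scaled over the libraries together, HSPC-like cells came from libraries 3 and 4 only. Depth limits the shares of *mmp9* and *mmp13a* in immature cells and all low levels outside the neutrophil-like cells, and causes were not tested. The replicate block changed no call of the 7 genes other than those already given.

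For mature against immature cells, the genes of the 7 called lower numbered 1 without each library in turn and without the filter on low counts, and 5 in libraries 3 and 4. Over all genes, the counts higher were 764 to 832 without a library, 2787 with the replicate block, 2085 in libraries 1 and 2 and 2423 in libraries 3 and 4. The counts lower were 781 to 979 without a library, 850 without the filter, 2552 with the block and 2457 in libraries 3 and 4.

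For cycling precursors against immature cells, 2 of the 7 genes were called higher in libraries 1 and 2. Those called lower numbered 1 with DESeq2, 5 with the block, 4 in libraries 1 and 2 and 6 in libraries 3 and 4. Over all genes, the counts higher were 706 to 755 without a library, 1941 with the block and 626 at resolution 1.0. The counts lower were 106 to 132 without a library, 658 with DESeq2, 205 without scaling, 119 without the filter, 1730 with the block, 1198 and 1492 in the pairs of libraries, 562 with genes scaled over all libraries and 78 at resolution 1.0. *mmp13a* ran between -0.45 and 0.31 without a library, positive without library 3, and turned to 0.20 in libraries 1 and 2, 0.67 at resolution 1.0 and 0.13 with the shallow and mixed sub-clusters kept. *mmp9* ran between -0.73 and 0.47, positive without library 4, and turned to 0.75, 0.76 and 0.29 in the other 3 of these settings. Keeping those sub-clusters was chosen after the data had been seen.

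For macrophage-like against non-myeloid cells, 1 gene of the 7 was called higher and 1 lower with the block, 2 higher in libraries 1 and 2 and 3 lower in libraries 3 and 4, where 6008 of all genes were lower. Without a library *mpx* ran between -0.41 and 0.028, positive without library 3, and it turned to 0.10 in libraries 1 and 2, where *npsn* turned to 0.016. *mmp13a* ran between -0.093 and 0.49, negative without library 1 or library 4, and turned to -0.20 in libraries 3 and 4, -0.14 at resolution 1.0 and -0.055 with genes scaled over all libraries, and *lect2l* to -0.46 at resolution 1.0. For HSPC-like cells, those of the 7 genes called lower numbered 1 to 3 without a library, 6 with the block and 5 in libraries 1 and 2. All genes higher there numbered 4220 with the block, 4770 in libraries 3 and 4 and 1782 with genes scaled over all libraries, and *mpx* turned to 0.010 in libraries 3 and 4 and to 0.082 under that scaling.

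Thinning to 1000 UMIs gave *mmp13a* in 26.5% of immature and 76.2% of mature cells and *cpa5* in 92.7% of immature cells. Without thinning, *mmp13a* was in 58.2% of immature cells, and *mmp9* in 13.4% of immature and 43.1% of mature cells. The observed over expected shares in mature cells were 0.87 and 0.99 for *lyz* with *mmp9* at 1000 UMIs and without thinning, 0.87 and 0.99 for *mmp13a* with *cpa5*, 0.50 and 0.84 for *mmp9* with *cpa5*, and 1.24 at 1000 UMIs for *mmp13a* with *mmp9*. Relative to neutrophil-like cells, *lect2l* in macrophage-like cells was at 0.51% by the median over cells and 3.02% without the UMIs of the 1% of cells that held most, an alternative chosen after the data had been seen. In non-myeloid cells *lect2l* was at 0% and 1.12% by these settings. *mpx* in HSPC-like cells was at 0% and 1.57% by these settings and at 1.30% without the highest doublet scores. In the *nkl.1* cluster, *npsn* was at 0.50% and 2.49% and *cpa5* at 0% by the median over cells.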
